A study of Mus musculus with 18 samples.

Results

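The 69 genes described here encode enzymes of phase II conjugation: 27 glutathione transferases, 21 UDP-glycosyltransferases and 21 sulfotransferases. They were chosen by symbol, as all genes starting with Gsta, Gstk, Gstm, Gsto, Gstp, Gstt, Gstz, Mgst, Ugt1a, Ugt2, Ugt3 or Sult and a digit, without pseudogenes marked -ps, among 33235 genes in each of the deposited tables. Liver mRNA was sequenced from mice given GalNAc-Mdm2ASO or GalNAc-conASO on a diet labelled HFHC or CDAHFD. An antisense oligonucleotide (ASO) directs the breakdown of its target RNA, here Mdm2, whose protein marks p53 for degradation. GalNAc is a sugar taken up by a receptor on hepatocytes, so the conjugate is directed mainly to these cells. Uptake by other cells of the liver was not measured here. The genotype label is MDM2 knockdown for Mdm2 ASO livers and WT for control ASO livers, and no engineered allele is named in either. CDAHFD is the usual abbreviation of a high-fat diet that lacks choline and has defined amino acids, while HFHC is given only by its letters. Strain, age, sex, dose and length of treatment are not given in the sources used here, and neither is a group on ordinary chow.

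There were 3 Mdm2 ASO and 4 control ASO libraries on HFHC, of 17770748 to 18798144 reads. CDAHFD had 5 libraries per group, of 22376178 to 31453055 reads. The HFHC Mdm2 ASO group lists 4 samples, but 2 of them, replicates 6 and 7, did not differ in any gene, so they stand as a single library, called 6-7. Values are the deposited normalized counts, that is, reads per gene times 1 scaling constant per library. The 2 diets were scaled separately, so levels are compared within a diet, and diets are compared through the change each shows. A gene rose or fell where limma-trend on log2(value + 0.5) gave a Benjamini-Hochberg adjusted p under 0.05 over all genes tested, and changes are log2 fold changes ± SE on that scale. Mdm2 itself had 420, 362 and 304 normalized counts with Mdm2 ASO on HFHC, against 907 to 963 with control ASO. On CDAHFD it had 564 to 861 with Mdm2 ASO and 1443 to 1650 with control ASO, so the groups did not overlap on either diet.

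Phase II enzymes join a polar group to drugs, pollutants, lipid peroxidation products, bilirubin, bile acids and hormones, after which transporters carry the conjugates into bile or blood. Glutathione transferases add the tripeptide glutathione to electrophiles, UDP-glycosyltransferases mostly add glucuronic acid from UDP-glucuronate, and sulfotransferases add sulfate from the donor PAPS. The liver is a main site of all of these reactions. Several of the genes are textbook targets of NRF2, the regulator of the antioxidant response, and others of the nuclear receptors CAR and PXR or of the aryl hydrocarbon receptor.

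Promoters of 4 members are shown because they hold the motif of NRF2, and they include members of the same class that moved differently. Each is the RefSeq window of 250 bases before to 50 after an annotated start site on GRCm38.p6, a build other than the one the reads were aligned to. Of the 69 members, 59 had such a window. Capitals mark TGACNNNGC, the core of the antioxidant response element, on either strand.
Gstm5 promoter, chr3:107895604-107895903, plus strand: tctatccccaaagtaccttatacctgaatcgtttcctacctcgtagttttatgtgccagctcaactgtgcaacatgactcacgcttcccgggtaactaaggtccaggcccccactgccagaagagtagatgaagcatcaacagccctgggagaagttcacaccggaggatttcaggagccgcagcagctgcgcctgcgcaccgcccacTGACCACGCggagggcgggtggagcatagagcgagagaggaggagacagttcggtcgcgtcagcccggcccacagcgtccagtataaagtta
Mgst1 promoter, chr6:138140277-138140576, plus strand: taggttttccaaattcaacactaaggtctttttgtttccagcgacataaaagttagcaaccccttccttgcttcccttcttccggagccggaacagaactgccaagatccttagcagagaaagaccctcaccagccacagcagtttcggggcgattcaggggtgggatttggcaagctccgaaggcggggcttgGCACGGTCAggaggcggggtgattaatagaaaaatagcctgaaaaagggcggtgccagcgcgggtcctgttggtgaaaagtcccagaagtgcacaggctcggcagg
Gsta3 promoter, chr1:21240335-21240634, plus strand: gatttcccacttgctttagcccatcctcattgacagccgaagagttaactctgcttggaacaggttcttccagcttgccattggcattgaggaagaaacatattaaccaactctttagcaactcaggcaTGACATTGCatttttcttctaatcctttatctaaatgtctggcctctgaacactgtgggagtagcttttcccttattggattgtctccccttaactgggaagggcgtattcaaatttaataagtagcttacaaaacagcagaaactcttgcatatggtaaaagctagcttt
Gstm7 promoter, chr3:107931565-107931864, minus strand: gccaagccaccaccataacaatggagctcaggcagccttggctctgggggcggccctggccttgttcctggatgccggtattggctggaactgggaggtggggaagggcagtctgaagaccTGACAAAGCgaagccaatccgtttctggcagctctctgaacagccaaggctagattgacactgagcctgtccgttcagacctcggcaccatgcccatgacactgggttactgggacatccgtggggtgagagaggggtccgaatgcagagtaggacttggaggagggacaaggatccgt
Gstm5 and Mgst1 fell on HFHC, while Gsta3 and Gstm7 were called on neither diet. These 4 were the only members with the motif in these windows, 4 of 59, while 14% of all 27025 genes with a window held it. Gstm7 and Mgst1 each have another window, at another annotated start site, that does not hold the motif. The motif GCGTG, the core bound by the aryl hydrocarbon receptor, was in windows of 12 of 59 members and 35.2% of all genes. CACGTG, the E-box of clock and MYC-type factors, was in 0 of 59 members and 8.09% of all genes. A match describes letters and is not a bound site.

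On HFHC the conjugation enzymes were mostly lower with Mdm2 ASO. Of 55 members that passed the filter on low values, 24 fell and 2 rose, which is 43.6% and 3.64%, while 13.8% and 16.8% of all 17441 genes tested fell and rose (30.6% were called in all). The median change of the 55 members was -0.43 and that of all genes -0.01. By family, 16 of 26 tested glutathione transferases fell and 0 rose, 7 of 17 UDP-glycosyltransferases fell and 1 rose, and 1 of 12 sulfotransferases fell and 1 rose. No glutathione transferase rose by edgeR or DESeq2 either, and Mgst2 alone was higher at an unadjusted p under 0.05. All Mdm2 ASO libraries were below all control ASO libraries for 22 members and above for 2, against 18% and 20.7% of all genes tested (38.7% in all). On CDAHFD 4 of 56 tested members fell and 4 rose, against 6.86% and 6.12% of 16803 genes (13% called in all), so the members' shares of 7.14% each were near the background. There the libraries were apart for 1 member below and 4 above, against 5.62% and 4.95% of all genes (10.6% in all). The plot of fold changes by gene shows the shift of the glutathione transferases to the left on HFHC.

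**Figure D1:**
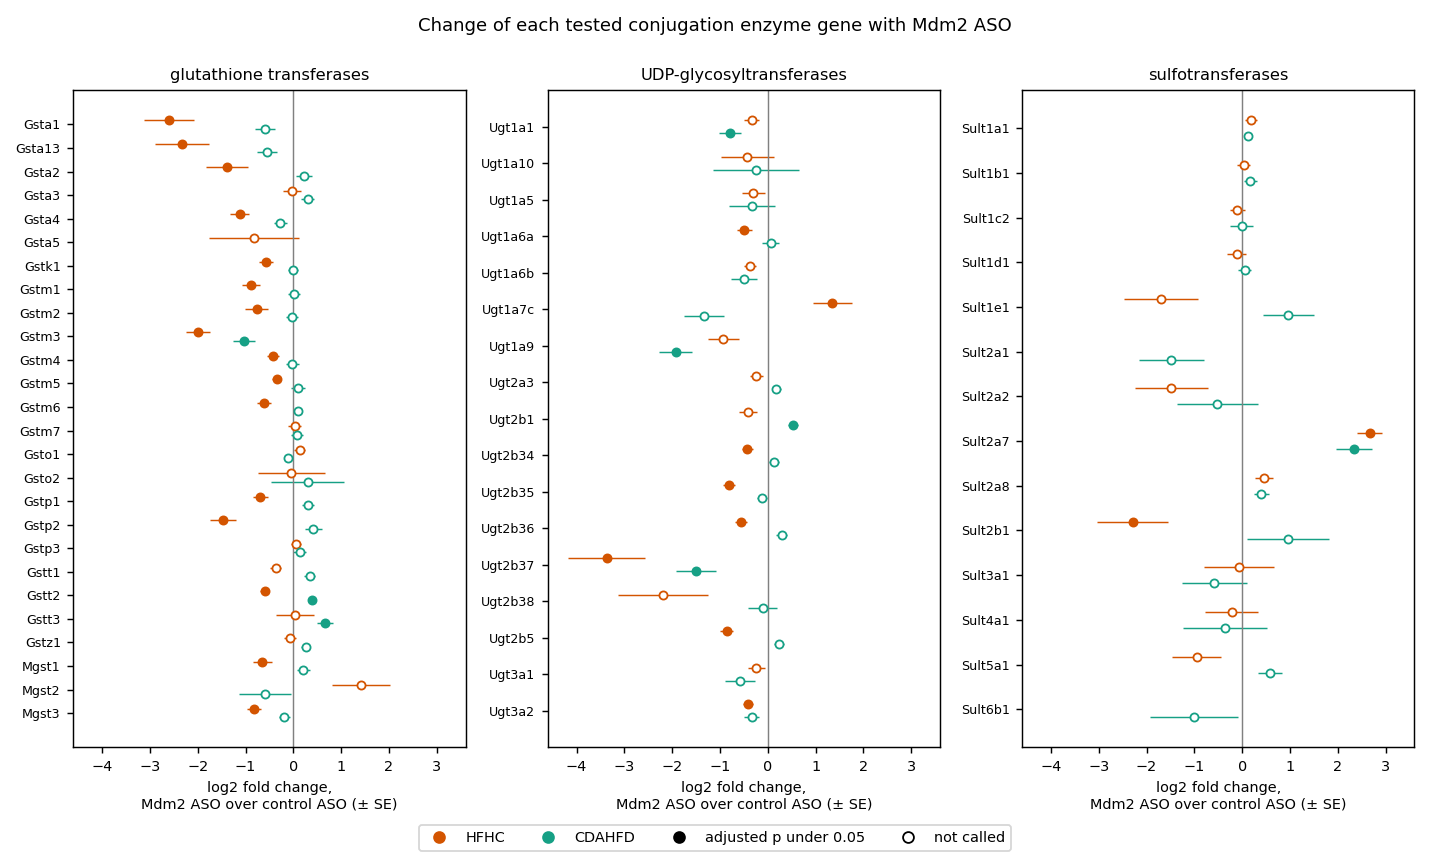
Log2 fold change of each tested member, Mdm2 ASO over control ASO, with its SE as bars, for HFHC (orange) and CDAHFD (green), in 1 panel per family; filled points passed an adjusted p of 0.05. Filled orange points of the glutathione transferases all lie below 0, and Sult2a7 lies above 2 on both diets.

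The HFHC Mdm2 ASO library 6-7 was the lowest of the 3 for 21 of the 24 members that fell. This count was not made over all genes that fell. Members took 0.762% of the reads of library 6-7, against 1.01% and 1.04% in libraries 9 and 10 and 1.20% to 1.27% in control ASO libraries. Without library 6-7, 16 members fell and 1 rose on HFHC, while 11.6% and 15.2% of all 18088 genes tested fell and rose. The calls lost were those of Gsta2, Gstk1, Gstm2, Gstm4, Mgst1, Sult2b1, Ugt1a6a, Ugt1a7c and Ugt3a2.

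Markers of other cell types and mitochondrially encoded mRNAs moved with Mdm2 ASO on HFHC as well. The summed level of 16 macrophage, monocyte and neutrophil markers was 22130 to 28334 with Mdm2 ASO and 6563 to 10875 with control ASO, 10 of 16 rose and none was at 0. Of the lymphocyte, endothelial and red blood cell markers, 6 of 11, 9 of 12 and 8 of 8 rose. Of the stellate cell and fibroblast markers 6 of 12 rose and 1 fell, while 8 of 12 cholangiocyte markers and 10 of 13 mitochondrially encoded mRNAs fell. Of 15 hepatocyte markers limma-trend called 0, with 1 at an unadjusted p under 0.05, while edgeR called 1 lower and DESeq2 2 higher and 3 lower. Their sum was 1771800 to 2492700 with Mdm2 ASO and 1631100 to 1997500 with control ASO. In bulk liver, fewer cells of a type and less RNA per cell cannot be told apart, and the part of these shifts in the members' changes was not tested. On CDAHFD 0 of 16 macrophage, monocyte and neutrophil markers rose and 1 fell, with a sum of 4144 to 7283 with Mdm2 ASO and 4821 to 7898 with control ASO, and 1 of 13 mitochondrial mRNAs rose. Of the endothelial, stellate cell and fibroblast, and lymphocyte markers, 2 of 12, 1 of 12 and 1 of 11 rose there. Limma-trend called 0 of 12 cholangiocyte markers on CDAHFD, with a median change of 0.82. At an unadjusted p under 0.05, 7 of them were higher and 1 lower. Of 15 hepatocyte markers 1 fell on CDAHFD. The sum of 16 male-biased liver genes on HFHC was 34865 to 44136 with Mdm2 ASO and 80973 to 152860 with control ASO. On CDAHFD it was 152650 to 223510 with Mdm2 ASO and 140420 to 226050 with control ASO. Such a sum is led by its most abundant genes. Of the 15 male-biased genes tested, only 4 fell and 3 rose on HFHC, and 4 rose on CDAHFD. Of 13 female-biased genes 0 were called on HFHC and 2 fell on CDAHFD. Of 15 pericentral genes 5 fell on HFHC, and 2 rose and 1 fell on CDAHFD. Of 14 periportal genes 1 rose and 3 fell on HFHC, and 3 fell on CDAHFD. The part of these lists in the members' changes was not tested.

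Among the alpha class, which conjugates lipid aldehydes and other electrophiles, 4 of 6 members fell on HFHC. Gsta1 had 12.0, 54.9 and 69.7 normalized counts with Mdm2 ASO, against 146, 273, 288 and 209 with control ASO. The groups did not overlap, and Gsta1 was at 19.9% of the control ASO mean (-2.60 ± 0.53, adjusted p = 0.00503, limma-trend). Gsta13 had 5.56, 28.4 and 36.4 with Mdm2 ASO, against 67.1, 119, 128 and 73.0 with control ASO (-2.33 ± 0.56, adjusted p = 0.0122, limma-trend). Both genes were lowest in library 6-7, and without it their changes were -1.83 and -1.52, still called. Gsta1 and Gsta13 are close copies: of all 100-base windows in their transcripts, 80.6% and 85.5% occur in another gene, so reads could be assigned to either and the split between them is uncertain. Gsta4, which acts on the lipid aldehyde hydroxynonenal and shares no such window, had 290, 441 and 543 with Mdm2 ASO, against 709, 954, 1045 and 899 with control ASO. It fell by 1.12 on the log2 scale (SE 0.20, adjusted p = 0.00277, limma-trend), with no overlap. Gsta2 fell too (-1.39 ± 0.44, adjusted p = 0.0407, limma-trend), but its 106 to 335 with Mdm2 ASO overlapped the 269 to 811 with control ASO. Its call was kept in 10 of 15 alternatives. Gsta3, the most abundant of the class per length and known in mice for detoxifying aflatoxin, did not follow them. It had 12054, 17176 and 19074 normalized counts with Mdm2 ASO and 13797, 19252, 17192 and 14948 with control ASO, a change of -0.03 ± 0.18 (adjusted p = 0.911, limma-trend).

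Of the 7 mu class genes, which lie in a cluster on chromosome 3, 6 fell on HFHC. Gstm1, the most abundant per length, had 15420, 22524 and 25906 normalized counts with Mdm2 ASO, against 35849, 40711, 43805 and 33908 with control ASO. No Mdm2 ASO library reached the control range (-0.88 ± 0.19, adjusted p = 0.0073, limma-trend). Gstm3 showed the largest log2 drop of the class, with 309, 623 and 756 with Mdm2 ASO, against 2303, 1935, 2076 and 2099 with control ASO. The group was at 26.8% of control and fell by 2.00 on the log2 scale (SE 0.25, adjusted p = 0.000295, limma-trend), or by 1.61 without library 6-7. The other 4 that fell, Gstm2, Gstm4, Gstm5 and Gstm6, changed by -0.77 to -0.35, and all but Gstm2 had groups that did not overlap. The calls of Gstm2 and Gstm4 were kept in 8 and 11 of 15 alternatives. Gstm5 was the most even of the 4, with 196, 195 and 187 with Mdm2 ASO, against 251, 253, 236 and 245 with control ASO. Gstm7, in the same cluster and also with an antioxidant motif in the window shown, was at 655, 575 and 737 with Mdm2 ASO and 547, 778, 689 and 572 with control ASO (0.03 ± 0.14, adjusted p = 0.901, limma-trend).

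The pi class gene Gstp1 had 4238, 6305 and 6599 normalized counts with Mdm2 ASO, against 10038, 8722, 9010 and 8580 with control ASO (-0.69 ± 0.15, adjusted p = 0.00714, limma-trend). Its neighbour Gstp2 had 17.6, 31.2 and 27.3 with Mdm2 ASO, against 53.7, 95.4, 69.0 and 65.0 with control ASO (-1.47 ± 0.27, adjusted p = 0.00295, limma-trend). Both groups were apart in each gene, but 46.9% of Gstp2 windows occur in another gene, mostly Gstp1, so the low counts of Gstp2 could hold reads of Gstp1. Gstp3, the third gene of this cluster on chromosome 19 and free of shared windows, was not called (0.05 ± 0.10, adjusted p = 0.731, limma-trend).

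The membrane-bound enzymes and the kappa class were lower as well. Mgst1, a transferase and peroxidase of the endoplasmic reticulum and mitochondria, had the highest level per length of all members on HFHC, with 25066 normalized counts per kb with Mdm2 ASO and 38481 with control ASO. Per library it had 37371, 54115 and 59887 normalized counts with Mdm2 ASO, against 74286, 81436, 76327 and 77796 with control ASO. The groups did not overlap, but the call was narrow (-0.65 ± 0.20, adjusted p = 0.0394, limma-trend) and over the alternatives its adjusted p ran from 0.000357 to 0.0948. The call of Mgst1 was kept in 7 of 15 alternatives. Mgst3 had 364, 592 and 545 with Mdm2 ASO, against 879, 887, 877 and 851 with control ASO (-0.83 ± 0.15, adjusted p = 0.00239, limma-trend). Gstk1, of mitochondria and peroxisomes, had 1470, 1779 and 2076 with Mdm2 ASO, against 2134, 3111, 2909 and 2404 with control ASO (-0.57 ± 0.15, adjusted p = 0.0188, limma-trend). Mgst2, a low gene that makes a leukotriene conjugate in other cells, had 10.2, 22.7 and 7.07 with Mdm2 ASO and 2.06, 2.25, 9.71 and 6.00 with control ASO, and was not called (adjusted p = 0.111, limma-trend).

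Of the theta class, Gstt2 fell on HFHC. It had 1483, 1764 and 1817 normalized counts with Mdm2 ASO, against 2480, 2844, 2662 and 2245 with control ASO (-0.60 ± 0.10, adjusted p = 0.00211, limma-trend), with no overlap. Its neighbour Gstt1 had 4611, 5716 and 6746 with Mdm2 ASO and 6666, 7539, 7404 and 7409 with control ASO, which overlapped in 1 library and missed the threshold (-0.37 ± 0.12, adjusted p = 0.0519, limma-trend), although DESeq2 called it. Enzymes of the omega and zeta classes with roles outside detoxification were not called. Gsto1, which also reduces dehydroascorbate, changed by 0.13 ± 0.12 (adjusted p = 0.47, limma-trend). Gstz1, the maleylacetoacetate isomerase of tyrosine breakdown, changed by -0.07 ± 0.12 (adjusted p = 0.697, limma-trend).

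The UDP-glycosyltransferases of the Ugt2b group, which glucuronidate steroids, bile acids and drugs, were lower on HFHC in 5 of 8 tested genes of the Ugt2 class. Ugt2b5 had 3998, 5893 and 5657 normalized counts with Mdm2 ASO, against 9544, 9942, 9586 and 8092 with control ASO (-0.86 ± 0.14, adjusted p = 0.00167, limma-trend). Ugt2b35 had 1476, 2158 and 1957 with Mdm2 ASO, against 3558, 3105, 3368 and 2925 with control ASO (-0.81 ± 0.13, adjusted p = 0.00134, limma-trend). Ugt2b36 had 6100, 6955 and 7171 with Mdm2 ASO, against 9127, 11799, 9869 and 9051 with control ASO (-0.56 ± 0.12, adjusted p = 0.00575, limma-trend). In all 3 genes every Mdm2 ASO library lay below every control ASO library. Ugt2b34 fell by 0.43 (log2, adjusted p = 0.0253, limma-trend). Ugt2b37 had the largest log2 change of all members but few reads, with 1.85, 1.89 and 5.05 with Mdm2 ASO, against 134, 11.2, 14.0 and 48.0 with control ASO. Its control ASO libraries spread widely, so its change (-3.37 ± 0.80, adjusted p = 0.0112, limma-trend) is imprecise. Ugt2b1 and Ugt2a3 were not called on HFHC (-0.42 and -0.24).

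Members of the Ugt1a cluster start from separate first exons and share their last exons, so 50.3% to 60.6% of their exonic bases lie in another gene of the same strand. Reads of the shared exons cannot be given to 1 gene, and how they were counted is not given in the sources used here. Of 7 tested, Ugt1a6a, which glucuronidates phenols, fell on HFHC, with 250, 276 and 232 with Mdm2 ASO, against 295, 451, 390 and 300 with control ASO (-0.49 ± 0.16, adjusted p = 0.0418, limma-trend). Ugt1a7c rose, with 26.9, 33.1 and 25.3 with Mdm2 ASO, against 14.5, 8.98, 5.39 and 19.0 with control ASO (1.35 ± 0.41, adjusted p = 0.0351, limma-trend). The calls of Ugt1a6a and Ugt1a7c were each kept in 10 of 15 alternatives. Both were lost without control ASO library 2 or 4 or any 1 Mdm2 ASO library. Ugt1a1, the enzyme of bilirubin conjugation and the most abundant of the cluster per length, had 2603, 2668 and 3425 with Mdm2 ASO and 2802, 4376, 4132 and 3426 with control ASO, and was not called (-0.34 ± 0.16, adjusted p = 0.145, limma-trend) except without control ASO library 1. In the Ugt3 class, Ugt3a2 fell, with 3778, 4139 and 4639 with Mdm2 ASO, against 4914, 6446, 5634 and 5258 with control ASO (-0.41 ± 0.11, adjusted p = 0.021, limma-trend).

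Among the sulfotransferases, 1 gene stood out. Sult2a7, of the hydroxysteroid class, had 258, 252 and 277 normalized counts with Mdm2 ASO on HFHC, against 26.8, 66.2, 41.0 and 38.0 with control ASO. On CDAHFD it had 143, 189, 127, 194 and 40.7 with Mdm2 ASO, against 25.7, 16.6, 22.0, 33.0 and 24.3 with control ASO. Every Mdm2 ASO library was above every control ASO library on both diets, and Sult2a7 was at 610% and 571% of control on HFHC and CDAHFD (2.67 ± 0.26, adjusted p = 5.9e-05 and 2.34 ± 0.37, adjusted p = 0.00159, limma-trend). It was the only member that rose on both, and the change did not differ between diets beyond its error (-0.33, 95% interval of -1.45 to 0.79 from the limma-trend fit). Its neighbour Sult2a8, which sulfates bile acids in mice and was the most abundant of the class per length, had 4817, 6093 and 6435 with Mdm2 ASO and 3577, 6057, 4161 and 3389 with control ASO on HFHC, and was not called on either diet (0.46 and 0.40, adjusted p = 0.104 and 0.11, limma-trend). It was called on HFHC without control ASO library 2 and on CDAHFD without control ASO library 1. Sult2b1, a cholesterol sulfotransferase, fell on HFHC at a low level, with 1.85, 3.78 and 0 with Mdm2 ASO, against 14.5, 4.49, 6.47 and 8.99 with control ASO (-2.29 ± 0.74, adjusted p = 0.0419, limma-trend). edgeR did not call it, and it was not called on CDAHFD (0.95 ± 0.86).

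Of the 5 tested genes of the phenol sulfotransferase class, limma-trend, edgeR and DESeq2 called 0 on either diet, and 0 had an unadjusted p under 0.05, while quantile normalization called Sult1a1 on HFHC. Sult1a1, its most abundant member per length, had 6352, 6083 and 7351 with Mdm2 ASO and 5188, 6989, 6012 and 5196 with control ASO on HFHC (0.18 ± 0.12, adjusted p = 0.304, limma-trend). Sult1d1, which sulfates catecholamines in mice, changed by -0.12 ± 0.19 on HFHC and 0.05 ± 0.13 on CDAHFD. Sult1e1, the estrogen sulfotransferase, varied widely among libraries of a group and was not called on either diet with all libraries, but on CDAHFD it was called without control ASO library 5. On CDAHFD it had 2538, 3090, 2770, 3188 and 1142 with Mdm2 ASO, against 2370, 544, 578, 737 and 5192 with control ASO, so the control ASO range enclosed the Mdm2 ASO range. On HFHC it had 13.9, 21.8 and 62.6 with Mdm2 ASO and 41.3, 376, 93.8 and 41.0 with control ASO. In the remaining classes, Sult3a1 was at most 10.7 in any library and Sult5a1 was not called (-0.95 and 0.58 on HFHC and CDAHFD).

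**Figure D2:**
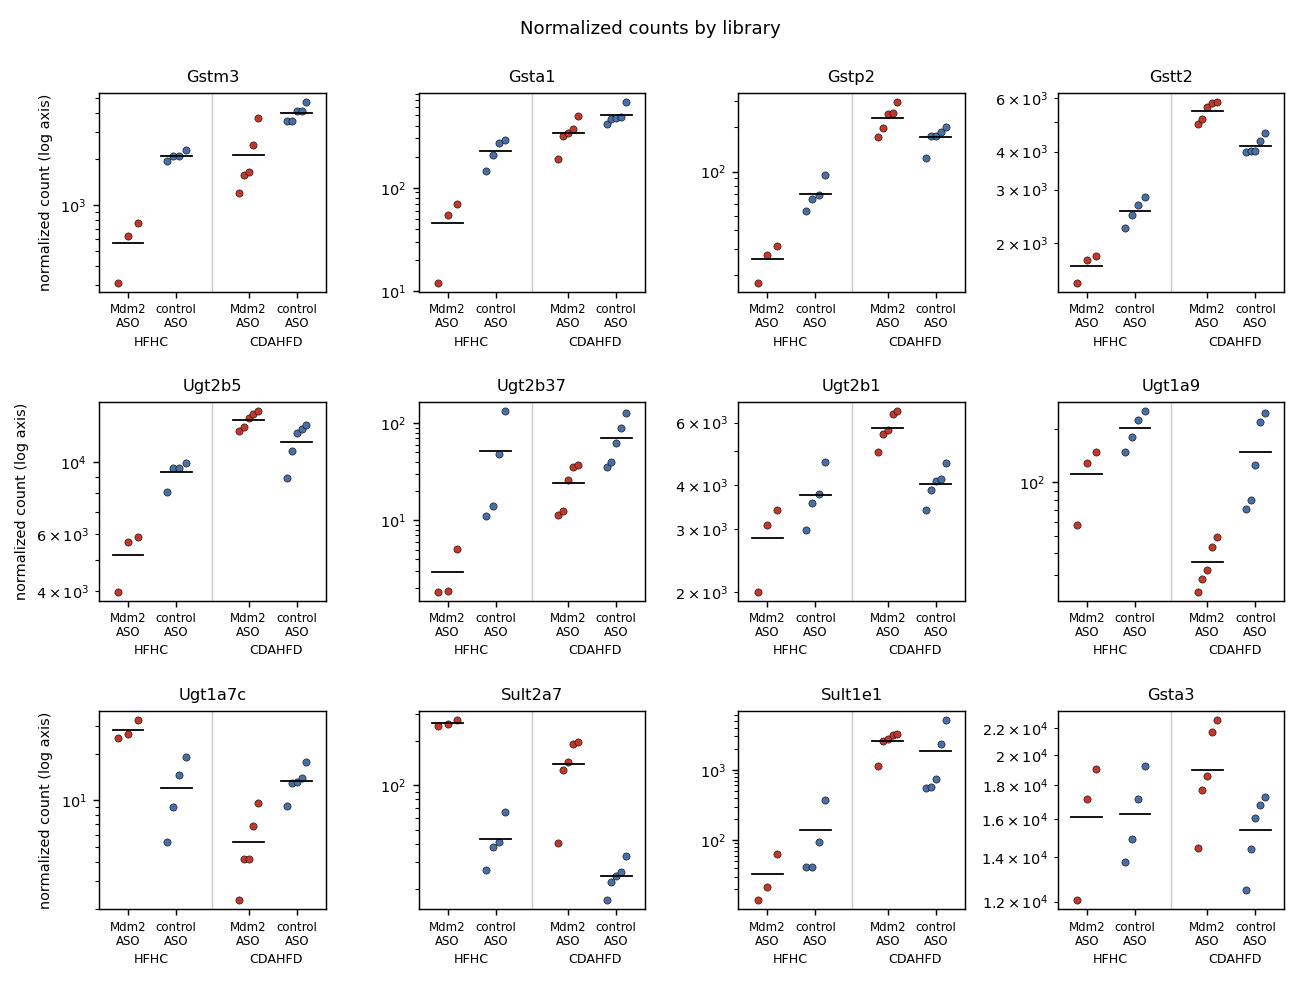
Normalized counts on log axes of 12 members in each library, with Mdm2 ASO in red, control ASO in blue and the mean as a bar. The diets were scaled separately, so groups are compared within a diet only. Sult2a7 is higher with Mdm2 ASO on both diets, Gstt2 is lower on HFHC and higher on CDAHFD, and Gsta3 overlaps on both.

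Of the 8 members called on CDAHFD, 4 were not called on HFHC, 2 fell on both diets, 1 rose on both, and Gstt2 was called in opposite directions. Gstt2 rose there, with 4933, 5610, 5786, 5137 and 5821 with Mdm2 ASO, against 4334, 4021, 4006, 4594 and 3980 with control ASO (0.38 ± 0.08, adjusted p = 0.00678, limma-trend). Ugt2b1 rose, with 5574, 5700, 6337, 6477 and 4943 with Mdm2 ASO, against 4618, 4097, 3874, 3405 and 4172 with control ASO (0.53 ± 0.10, adjusted p = 0.00384, limma-trend). Neither gene's groups overlapped. Gstt3, a neighbour of Gstt2, rose with overlapping groups, at 1332 to 1958 with Mdm2 ASO and 745 to 1522 with control ASO (0.66 ± 0.17, adjusted p = 0.0221, limma-trend). Its call was lost in 3 of 17 alternatives, without control ASO library 2 or Mdm2 ASO library 7 or 9.

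Ugt1a9 was the only member that fell on CDAHFD without overlap, with 28.3, 24.1, 31.7, 48.8 and 43.0 with Mdm2 ASO, against 79.4, 247, 125, 221 and 71.0 with control ASO (-1.93 ± 0.34, adjusted p = 0.00309, limma-trend). On HFHC it was at 55.5% of control and narrowly missed the threshold (-0.93 ± 0.32, adjusted p = 0.0512, limma-trend), although DESeq2 and several other alternatives called it. Its difference between diets was not called, so whether the fall of Ugt1a9 was larger on CDAHFD is not settled. Ugt1a1 fell on CDAHFD too, with 607, 456, 549, 684 and 425 with Mdm2 ASO, against 1163, 1488, 594, 1059 and 638 with control ASO (-0.79 ± 0.23, adjusted p = 0.0324, limma-trend). Control ASO libraries 3 and 5 lay within the Mdm2 ASO range in Ugt1a1, and its call was lost in 6 of 17 alternatives, without control ASO library 1, 2 or 4 or Mdm2 ASO library 7, 8 or 10. Gstm3 fell on CDAHFD as it did on HFHC, with 1573, 1635, 1193, 3724 and 2477 with Mdm2 ASO, against 3524, 3521, 4106, 4122 and 4710 with control ASO (-1.03 ± 0.23, adjusted p = 0.0113, limma-trend). Only Mdm2 ASO library 9 reached the control ASO range. Ugt2b37 had 12.6, 26.2, 11.3, 37.3 and 35.1 with Mdm2 ASO, against 62.2, 35.1, 89.9, 40.3 and 126 with control ASO (-1.51 ± 0.42, adjusted p = 0.0291, limma-trend). Its call was lost in 5 of 17 alternatives, without control ASO library 1, 3 or 5 or Mdm2 ASO library 6 or 8.

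The glutathione transferases most abundant per length, lower on HFHC, were not called on CDAHFD. Gstm1 had 41095, 46355, 41073, 55392 and 48406 with Mdm2 ASO, against 46914, 47041, 40180, 45107 and 51077 with control ASO (0.01 ± 0.12). Mgst1 had 101600, 96085, 103500, 96068 and 102310 with Mdm2 ASO, against 105620, 80024, 77057, 81191 and 91886 with control ASO (0.21 ± 0.14). Gstp1 had 16875, 18340, 17587, 16024 and 15481 with Mdm2 ASO, against 11885, 15150, 10699, 14325 and 16908 with control ASO (0.31 ± 0.12). The groups overlapped in each of these genes, and without control ASO library 5 Gstp1 was called. Gstz1 had no overlap, with 16524 to 18043 with Mdm2 ASO and 12225 to 16000 with control ASO, but missed the threshold (0.26 ± 0.09, adjusted p = 0.0852, limma-trend), although DESeq2 called it.

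Summed over each family, the glutathione transferases had 92364 to 144170 normalized counts with Mdm2 ASO and 166730 to 190700 with control ASO on HFHC. The UDP-glycosyltransferases had 26599 to 35204 with Mdm2 ASO and 41495 to 52219 with control ASO. Neither sum overlapped between groups. The sulfotransferases overlapped, with 13749 to 17029 with Mdm2 ASO and 10824 to 17162 with control ASO. On CDAHFD all 3 sums overlapped between the groups, for example 227720 to 247490 with Mdm2 ASO and 185170 to 234890 with control ASO for the glutathione transferases. A sum is led by its most abundant genes, Mgst1 and Gstm1 in the first family.

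**Figure D3:**
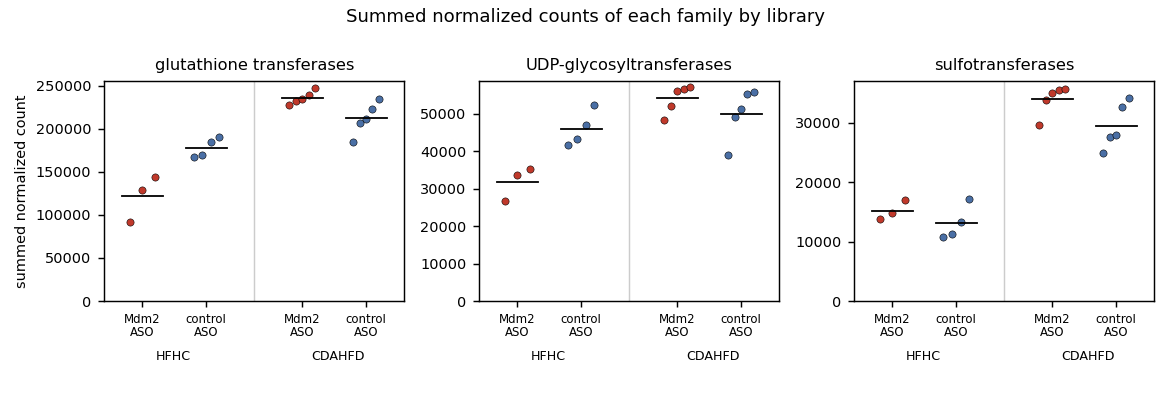
Summed normalized counts (axis from 0) of each family in each library, with Mdm2 ASO in red, control ASO in blue and the mean as a bar. The groups are apart for glutathione transferases and UDP-glycosyltransferases on HFHC, with library 6-7 the lowest point, and overlap on CDAHFD.

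The change with Mdm2 ASO itself differed between the diets for 19 of the 54 members tested in both, of which 18 had a higher change on CDAHFD and 1 a lower one. Of all 16333 genes, 9.83% were higher and 13.6% lower (23.5% called in all), while 33.3% of members were higher and 1.85% lower, with a median difference of 0.55 for members and 0.01 for all genes. The 18 were 13 glutathione transferases, from all classes but omega and zeta, and 5 genes of the Ugt2b group. Of 12 sulfotransferases tested 0 were called by limma-trend, edgeR or DESeq2, and 3 had an unadjusted p under 0.05 (Sult1e1, Sult2b1 and Sult5a1). Quantile normalization called Sult1e1 and Sult5a1, the replicate block called Sult5a1, and leaving out some single libraries called Sult1e1, Sult2b1 or Sult5a1. For the same contrast 11 of 12 cholangiocyte markers, 8 of 13 mitochondrial mRNAs and 8 of 15 pericentral genes had a higher change on CDAHFD, and 11 of 16 macrophage, monocyte and neutrophil markers a lower one. Of 15 male-biased liver genes 5 had a higher change and 1 a lower one. The part of these shifts in the members' differences was not tested. Gstt2 was the clearest, with a difference of 0.98 ± 0.13 (log2, adjusted p = 1.68e-05, limma-trend) and a change of opposite sign that passed the threshold on each diet. It was followed by Gstp2 (1.89 ± 0.31, adjusted p = 0.000204, limma-trend), Ugt2b5 (1.09 ± 0.18, adjusted p = 0.000231, limma-trend), Ugt2b36 (0.85 ± 0.17, adjusted p = 0.00124, limma-trend) and Gstp1 (1.00 ± 0.20, adjusted p = 0.0013, limma-trend). Ugt2b1 differed as well (0.95 ± 0.21, adjusted p = 0.00316, limma-trend), although on HFHC alone it was not called. The 1 member with a lower change on CDAHFD was Ugt1a7c (-2.68 ± 0.59, adjusted p = 0.00277, limma-trend), which had 4.19, 4.19, 6.80, 9.57 and 2.26 with Mdm2 ASO and 13.9, 17.6, 9.17, 12.9 and 13.1 with control ASO there. It is a low gene of the Ugt1a cluster, subject to the shared exons above.

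Some members that fell on HFHC but not on CDAHFD had no difference that passed the threshold. Gstm2, Gstm4, Gstm5, Sult2b1, Ugt1a6a and Ugt3a2 are of this kind in limma-trend. The difference of Gstm5 was called by edgeR, DESeq2, quantile normalization and the replicate block, and that of Gstm2 by quantile normalization and the replicate block. Gstm3 and Ugt2b37, which fell on both, were likewise not called in the difference by limma-trend (0.97, adjusted p = 0.0798 and 1.85, adjusted p = 0.151). DESeq2 called the difference of both, and the replicate block that of Gstm3. Without library 6-7 the difference was called higher for 12 members, against 7.66% of all 16481 genes tested. The calls of Gsta13, Gsta2, Gsta4, Gstk1, Mgst3 and Ugt2b34 were lost.

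**Figure D4:**
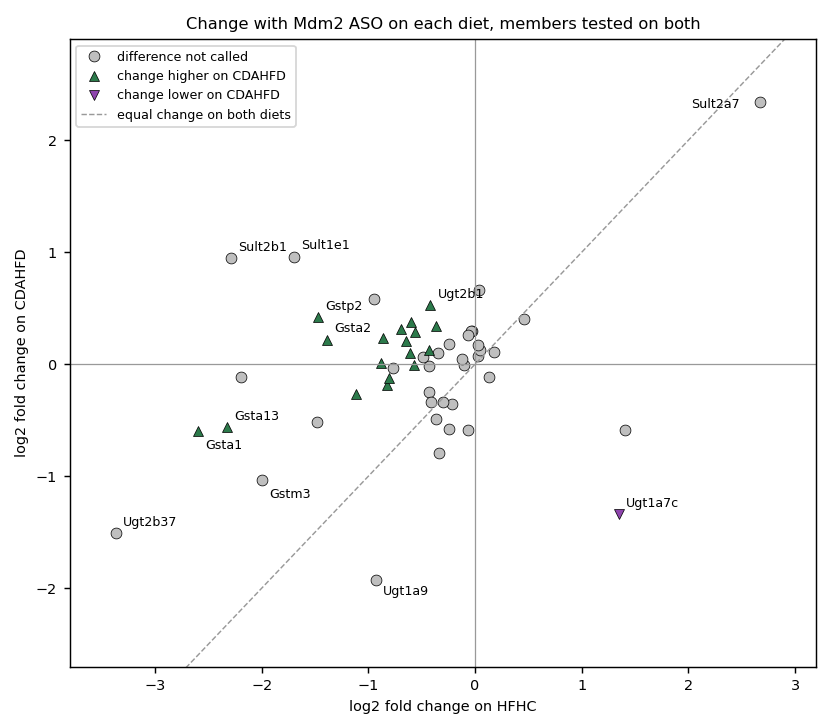
Log2 fold change with Mdm2 ASO on CDAHFD (vertical) against that on HFHC (horizontal) for the 54 members tested on both, marked by the call of the difference, with a dashed line of equal change. The 18 green points lie above the line, Ugt1a7c lies below it, and Sult2a7, Gstm3 and Ugt2b37 have changes of the same sign on both diets.

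Of the 69 members, 12 were tested on neither diet, and 8 were at 0 in all HFHC libraries and 4 in all CDAHFD libraries. These were the olfactory Ugt2a1 and Ugt2a2, Sult1c1 and Sult2a4 on both diets, and Sult2a5, Sult2a6, Sult6b1 and Sult6b2 on HFHC. The female-biased Sult2a1, Sult2a2, Sult2a3 and Sult3a1 stayed at 16.8 or below in every library.

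Genes that supply the cosubstrates were in part lower on HFHC too, from lists drawn up with earlier results of these data known. On HFHC 6 of 15 genes of glutathione supply and turnover fell and 0 rose, among them Gclc and Gclm, the subunits of the rate-limiting enzyme of glutathione synthesis, and Gss, which completes it. Gclc had 5995 ± 289 normalized counts with Mdm2 ASO and 8553 ± 741 with control ASO (SD, n = 3 and 4; -0.51 ± 0.09, adjusted p = 0.00302, limma-trend). Gss fell by 0.53 and Gclm by 0.42 (log2), and Oplah, which returns glutamate from the glutathione cycle, by 0.52. On CDAHFD 1 of 15 fell, the glutathione reductase Gsr (-0.41 ± 0.10, adjusted p = 0.0161, limma-trend), and 2 rose, Dpep1 (0.86) and Oplah (0.32). The change was higher on CDAHFD for 3 of the 15. Of 6 genes around UDP-glucuronate, Ugdh, Ugp2 and Slc35d1 fell on HFHC by 0.67, 0.34 and 0.39 (log2). They make UDP-glucuronate and carry it into the endoplasmic reticulum. Gusb, the glucuronidase that removes glucuronic acid from conjugates, rose by 0.44 on HFHC. On CDAHFD 1 of 6 was called, Gusb, which fell by 0.40. Around PAPS, 1 of 7 genes was called on each diet, the phosphatase gene Bpnt2 (-0.27 on HFHC and -0.46 on CDAHFD).

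Other conjugating and hydrolysing enzymes fell in 10 of 19 cases on HFHC and rose in 1. Examples are Glyat, the glycine conjugase, at -0.65, As3mt, the arsenic methyltransferase, at -0.73, and Hnmt, which methylates histamine, at -0.67. On CDAHFD 3 of 19 fell and 6 rose, among them Nnmt, which methylates nicotinamide, at 1.18, and Nat8, which completes mercapturic acids from glutathione conjugates, at 0.91. As3mt fell on both diets (-1.23 on CDAHFD). Among 12 transporters that carry conjugates or take up their precursors, 5 fell and 4 rose on HFHC. Abcc2 and Abcc3, which export conjugates into bile and blood, changed by -0.35 and -0.69 and both fell, while Abcc1 rose, with 298 ± 11.1 with Mdm2 ASO and 87.7 ± 5.56 with control ASO (SD, n = 3 and 4; 1.76 ± 0.11, adjusted p = 3.23e-06, limma-trend). Slco1a1, an uptake carrier of organic anions, rose on both diets (3.37 on HFHC and 1.10 on CDAHFD).

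Of 12 well known NRF2 targets outside the enzyme families, 9 fell and 2 rose on HFHC, with a median of -0.47. Srxn1 had 958 ± 211 with Mdm2 ASO and 1742 ± 181 with control ASO (SD, n = 3 and 4; -0.88 ± 0.14, adjusted p = 0.00136, limma-trend), and Nqo1 fell by 0.74 and Txnrd1 by 0.38 (log2). Hmox1, which encodes the heme-degrading oxygenase and is also high in macrophages, rose, with 3815 ± 906 with Mdm2 ASO and 725 ± 92.6 with control ASO (2.38 ± 0.15, adjusted p = 3.91e-06, limma-trend). On CDAHFD 2 of 12 fell, Srxn1 (-0.36) and Hmox1 (-0.76), and 1 rose, Ephx1 (0.46). The NRF2 gene Nfe2l2 was not called on HFHC (-0.10, adjusted p = 0.448, limma-trend) and rose on CDAHFD (0.26, adjusted p = 0.0196, limma-trend). Of 17 genes listed as regulators of these enzymes, 2 rose and 3 fell on HFHC, and 4 rose and 0 fell on CDAHFD. On HFHC Bach1, a repressor at NRF2 sites, rose by 0.97 and the liver factor gene Cebpa fell by 0.46 (log2). Of 9 CAR and PXR targets, 1 rose and 1 fell on each diet. Of 6 genes read as aryl hydrocarbon receptor targets 2 rose and 0 fell on HFHC. Those that rose were Ahrr (3.02) and Tiparp (1.78), while the median of the 6 was -0.18. On CDAHFD 1 of the 6 rose and 0 fell, with a median of 0.21. The receptor genes Nr1i2, Nr1i3 and Ahr were called on neither diet.

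**Figure D5:**
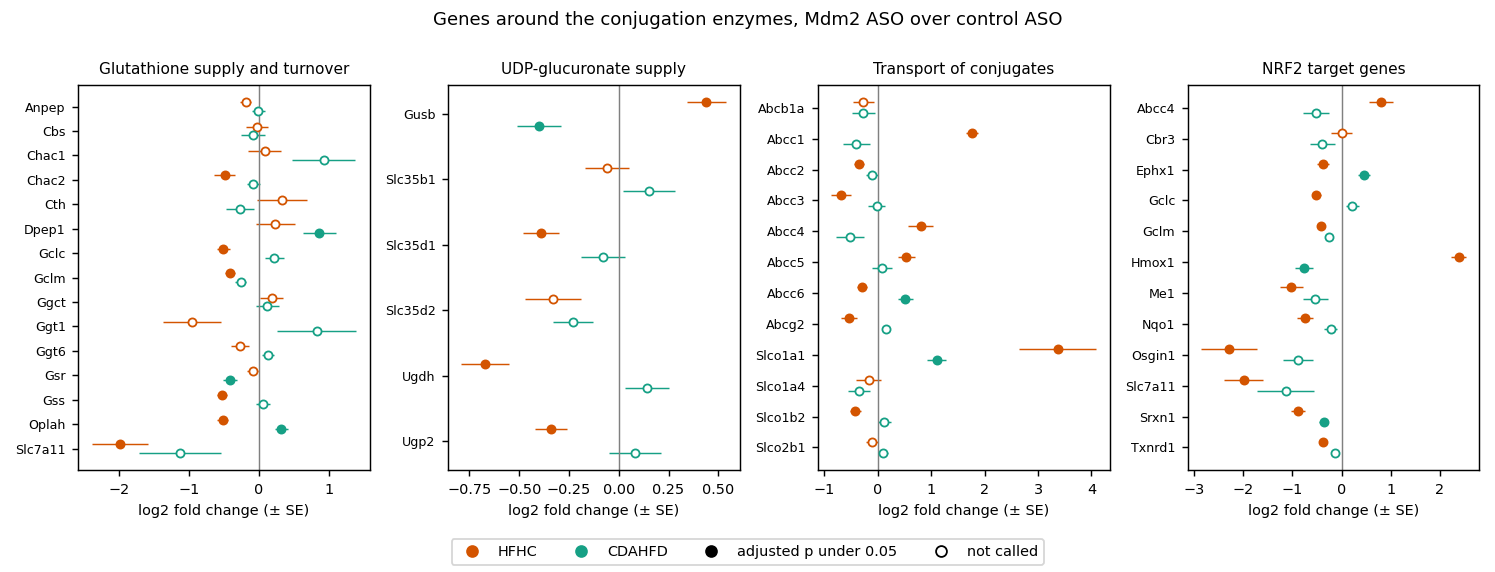
Log2 fold change, Mdm2 ASO over control ASO, with its SE as bars, of genes of glutathione supply, UDP-glucuronate supply, conjugate transport and NRF2 response on HFHC (orange) and CDAHFD (green); filled points passed an adjusted p of 0.05. Most filled orange points of the supply and NRF2 panels lie left of 0, with Gusb, Hmox1 and Abcc4 to the right.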

How the data were processed

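Liver mRNA of 18 samples was measured by strand-specific RNA-seq. The submitters' processing notes name STAR 2.7.10b, the build GRCm39 and featureCounts of Subread 2.0.3. Counting options are not given in the sources used here. The deposited values are a scaled signal, named TMM-normalized counts by the authors in the titles of the tables, with 1 table per diet and 0 columns of other series. Each value was a whole number of reads times 1 constant per library (100% of values within 0.01), which gave depth and the reads for the count tests.

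The filter kept genes that reached 1 in 3 (HFHC) or 5 (CDAHFD) libraries or more. The test was limma-trend (limma 3.58.1) on log2(value + 0.5), without covariates, adjusted over all genes by the Benjamini-Hochberg method at 0.05. The difference is the CDAHFD effect minus the HFHC effect. Alternatives were edgeR 4.0.16 and DESeq2 1.42.0 on recovered reads, a pseudocount of 5, no filter or a mean of at least 10, quantile normalization, median-of-ratios factors, replicates 6 and 7 as separate libraries, a replicate block, and leaving out each library. Models were tested on simulated data (R 4.3.3). Exonic lengths and shared windows of 100 bases came from GENCODE M21 on GRCm38, and promoters from RefSeq (Python 3.11.15). The HNF1 motif was also searched, after values were seen, and is not reported.

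Members given library by library were the called ones whose groups did not overlap (up to 10 per direction and diet by size of change, mean log2 of at least 3), the highest of each class and, for the difference, the 6 of smallest p per direction. Of these, Gsto1, Gstz1, Sult3a1 and Sult5a1 are given by their range or change alone. From the lists of supply, other conjugating enzymes, transport, regulators, NRF2 targets and aryl hydrocarbon receptor targets, called genes of smallest p were named, up to 4 per list and diet. Cell type markers, mitochondrial mRNAs, CAR and PXR targets, sex-biased genes and zonal genes are given as counts. Markers of kidney, intestine and pancreas were also listed and are not reported. Library values of Gstm5, Gstm7, Mgst2, Sult1e1, Sult2b1 and Ugt1a6a, other values of Gsta2, Gstp3, Gstt3, Sult1d1 and Ugt2b34, and Nqo1, Txnrd1, Abcc2, Abcc4, Nr1i2, Nr1i3 and Ahr fall outside this rule and were chosen after their values were seen. The members and lists were chosen with earlier results of these data known. The labels do not say that replicates are separate animals, so p-values measure the spread between these samples. The interval of a difference uses the limma-trend SE and degrees of freedom, so it rests on the spread between libraries.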

Additional observations from a re-analysis of the deposited data

Results flagged for a closer look

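The change with Mdm2 ASO differed between CDAHFD and HFHC, by an interaction contrast in limma-trend, for 19 members, given here as the CDAHFD change minus the HFHC change on the log2 scale. The differences were 0.98 for Gstt2, 1.89 for Gstp2, 1.09 for Ugt2b5, 0.85 for Ugt2b36, 1.00 for Gstp1, 0.95 for Ugt2b1, 0.71 for Gstm6, 0.89 for Gstm1 and 0.71 for Gstt1. They were 0.69 for Ugt2b35, 0.85 for Mgst1, 2.00 for Gsta1, 1.61 for Gsta2, 0.56 for Ugt2b34, 0.85 for Gsta4, 0.64 for Mgst3, 0.56 for Gstk1 and 1.77 for Gsta13. Only Ugt1a7c had a negative one, at -2.68.

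In 35 members, those of the naming rule and the others given library by library, 105 groups of 4 or 5 libraries were searched for a library far from the others. This found 5, and chance flags about 1 group in 20. Gsta1 was at 675 in CDAHFD control ASO replicate 5, above the other 4. Gstk1 was at 3575 in CDAHFD Mdm2 ASO replicate 7, above the other 4. Gstt1 was at 6666 in HFHC control ASO replicate 1, below the other 3. Sult1e1 was at 376 in HFHC control ASO replicate 2, above the other 3. Mgst2 was at 3.70 in CDAHFD control ASO replicate 2, below the other 4.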

How the results depend on the processing

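Of 114 recomputed counts of members, 103 stayed within 1.5 times the reported count and 11 did not. Another 1923 values were recomputed, which were changes of called members and counts of the other lists. Of these, 85 changes lost their call and 69 counts moved beyond 1.5 times. No change of a called member reversed its sign. Under quantile normalization 4 members rose on HFHC in place of 2, the added ones being Sult1a1 and Sult2a8. That scaling put the median of all genes at -0.111 on HFHC and 0.102 for the difference, against -0.006 and 0.006, and all-gene calls on HFHC became 2482 higher and 3725 lower, against 2932 and 2399. With a mean of at least 10 the member with a lower change on CDAHFD was not tested, which left 0. Leaving out 1 library at a time gave 1 to 2 members that rose and 16 to 25 that fell on HFHC, and 3 to 6 that rose and 2 to 7 that fell on CDAHFD. Of all genes tested, 11.8% to 16.5% then rose and 8.58% to 13% fell on HFHC. On CDAHFD 3.25% to 6.38% of all genes rose and 3.94% to 6.98% fell. The number of members that fell on CDAHFD was 2 without control ASO replicate 1 or Mdm2 ASO replicate 8, and 7 without Mdm2 ASO replicate 9. For the difference, leaving out 1 library gave 12 to 22 members higher and 1 to 2 lower. There were 12 higher without HFHC Mdm2 ASO replicate 6-7, and 2 lower without CDAHFD control ASO replicate 2 or Mdm2 ASO replicate 10. Of all genes tested, 7.66% to 10.1% were then higher and 11% to 14.4% lower. The count of members that rose on HFHC was 1 without control ASO replicate 4 or any Mdm2 ASO library, since Ugt1a7c lost its call in each case. Ugt1a7c also lost its call without control ASO replicate 2, where Sult2a8 was called in its place. Calls of 15 of 26 members on HFHC, 5 of 8 on CDAHFD and 10 of 19 for the difference were kept under every setting in which they were tested.

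Within a diet the groups share no replicate number. Across diets, same-numbered libraries correlated from -0.066 to 0.105, over 0.1 in 1 of 7 pairs, and 2 of 7 correlated best with their own number, so the numbers were not taken as pairs. With the replicate block, 17 members were higher and 1 lower, against 7.85% and 10.7% of all genes tested, and 14 of 19 calls were kept. Low members such as Ugt2b37, Sult2b1 and Ugt1a7c rest on few reads.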
